A study of Mus musculus with 6 samples.

Results

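The endothelial marker genes described here are Pecam1, Cdh5, Tek, Tie1, Kdr, Flt1, Eng, Vwf, Emcn and Esam, 10 genes chosen by name as classical markers of the cells that line blood vessels. All probes that the platform annotation gives to these symbols were taken, which was 16 of the 45281 probes on the array and 10 of 19057 named genes. Total RNA from whole tissue was labelled with Cy3 and read on 6 Illumina bead arrays, which report 1 intensity per probe. The 6 groups were adult tibialis anterior (TA, a fast muscle of the lower hind leg) of miR-214 knockout (KO) and wild-type (WT) mice, adult heart of KO and WT mice, and heart at postnatal day 14 (P14) of KO and WT mice. Adult mice were 8 weeks old. All groups carry a mixed strain background and are labelled male, and each array holds cDNA pooled from 3 mice, so each group has 1 array and no spread between animals can be seen. The knockout is given in the labels as miR-214 KO, without a cell type or promoter that would restrict it.

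Blood vessels are lined by endothelial cells that are held together by adhesion molecules at their junctions and that carry receptors for vascular endothelial growth factors and angiopoietins. Heart and skeletal muscle are both densely supplied with capillaries that deliver oxygen and fatty acids to the fibres, and the heart chambers have an endothelial lining of their own, the endocardium. Endothelial genes are commonly controlled by transcription factors of the ETS family, which bind sites with a GGAA core. A microRNA acts by pairing its seed, a short stretch near its 5′ end, with target messenger RNAs.

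The KO mice lack the RNA shown here as its 2 mature arms, with the seed (bases 2 to 8) in capitals. The sequences are from RefSeq, assembly GRCm38.p6, and lie on the plus strand at chr1:162223397-162223418 and chr1:162223438-162223459.
mmu-miR-214-5p: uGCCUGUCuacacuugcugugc
mmu-miR-214-3p: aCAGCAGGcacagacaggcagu

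RefSeq promoters on GRCm38.p6 were at hand for 6 of the 10 marker genes (Eng, Emcn, Tek, Tie1, Kdr and Flt1). They are shown for Eng and Emcn, which had the lowest values in TA relative to adult heart, and for Flt1, which differed from the others with age, because the results below turn on these genes. Each run is the 250 bases before the annotated start, 5′ to 3′ on the gene's strand, and capitals mark AGGAAG or its reverse complement CTTCCT, letters that hold the ETS core. The Eng run is chr2:32646345-32646594 on the plus strand, the Emcn run is chr3:137340828-137341077 on the plus strand and the Flt1 run is chr5:147726012-147726261 on the minus strand.
Eng: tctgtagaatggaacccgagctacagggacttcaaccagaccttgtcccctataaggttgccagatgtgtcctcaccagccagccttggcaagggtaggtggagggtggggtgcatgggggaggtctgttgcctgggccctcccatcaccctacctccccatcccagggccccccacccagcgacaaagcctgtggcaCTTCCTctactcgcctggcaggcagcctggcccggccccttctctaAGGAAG
Emcn: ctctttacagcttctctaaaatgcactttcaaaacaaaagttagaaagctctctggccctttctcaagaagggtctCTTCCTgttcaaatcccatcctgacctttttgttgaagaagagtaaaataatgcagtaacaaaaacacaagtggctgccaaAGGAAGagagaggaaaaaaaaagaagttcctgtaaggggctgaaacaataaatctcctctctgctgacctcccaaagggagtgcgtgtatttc
Flt1: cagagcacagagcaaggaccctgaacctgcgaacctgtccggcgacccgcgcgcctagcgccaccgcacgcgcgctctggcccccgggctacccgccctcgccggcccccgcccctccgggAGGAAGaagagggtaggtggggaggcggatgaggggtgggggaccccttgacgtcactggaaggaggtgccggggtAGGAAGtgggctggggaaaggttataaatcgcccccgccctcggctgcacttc

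Each of these 3 runs holds 2 matches, the Tie1 run holds 1, and the Tek and Kdr runs hold 0. Matches were thus found in 66.7% of the 6 runs and in 29.5% of all 32851 mouse promoters of the same length, which describes the letters and not a bound site.

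Across the arrays, 14892 to 17979 probes were detected (detection p under 0.01), with a median of 43 or 44 beads behind each probe. The heart marker Myh6 had a log2 intensity of 5.99 in TA of KO mice and 5.62 in TA of WT mice, against 14.77 to 14.90 in the 4 heart samples, and the fast myosin gene Myh4 had 13.57 in TA of KO mice and 13.65 in TA of WT mice, against 4.27 to 5.19 in heart, so by these 2 genes the tissues matched their labels. Of 12 fast fibre genes, all called higher in TA than in adult heart, 12 were also detected in the P14 heart pair and 6 in the adult heart pair. The sex did not match its label: Xist, the RNA that silences an X chromosome in females, had 9.62 to 10.65 for its brightest probe over the 6 arrays, each above background, and the Y-linked gene Eif2s3y was detected by 1 probe and only in WT P14 heart, at 8.09 against at most 4.40 elsewhere. The P14 heart pair therefore differs in this respect as well as in genotype. The array measures no microRNA, and the brightest probe of Dnm3os, the RNA from which miR-214 is cut, had 5.89 to 6.35 in the 3 KO samples and 6.14 to 6.48 in the 3 WT samples, which does not check the deletion.

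Of the 16 marker probes, 13 probes of 9 genes were detected on all 6 arrays. Both Kdr probes and the dimmer of 2 Vwf probes were detected on none. Kdr encodes VEGF receptor 2, the main signalling receptor for VEGF-A, and its brighter probe had detection p-values of 0.0118 to 0.101, so no level or fold is given for it. Values are log2 of background-corrected, quantile-normalized intensities. They compare samples for the same probe and not genes with each other. For genes with several probes the brightest is used unless another is named.

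Between the KO and WT samples, the values of 8 of the 9 genes were lower in the KO sample in TA, those of 7 genes in adult heart and those of 4 genes in P14 heart. Over the 13 detected probes the counts were 10, 8 and 6, against 54.2%, 55.0% and 49.8% of all probes. The counts of probes in both hearts are near these shares. No marker probe differed 2-fold in any setting, against 2.66% of all probes in TA, 1.85% in adult heart and 0.976% in P14 heart, shares at which 0 of 13 probes says nothing particular about these genes. With 1 array per group, each such difference compares 2 pooled samples, and the error given with it (bead SE) covers only the reading of the beads.

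Among the junction molecules, Pecam1 encodes CD31, an adhesion molecule also present on platelets and leukocytes. Its probe ILMN_2700982 had a log2 intensity of 8.76 in TA of KO mice and 9.19 in TA of WT mice, 9.97 in adult heart of KO mice and 10.16 in adult heart of WT mice, and 10.12 in P14 heart of KO mice and 10.30 in P14 heart of WT mice. KO samples were the lower of each pair, and both TA values lay below all heart values. The KO minus WT difference was -0.44 ± 0.07 (bead SE) in TA, -0.19 ± 0.06 in adult heart and -0.18 ± 0.07 in P14 heart.

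Cdh5 encodes VE-cadherin, the cadherin of the endothelial junction. Its probe ILMN_2771550 had 7.42 in TA of KO mice and 7.83 in TA of WT mice, 7.63 in adult heart of KO mice and 8.04 in adult heart of WT mice, and 8.31 in P14 heart of KO mice and 8.44 in P14 heart of WT mice. The KO sample was again the lower of each pair, while the TA and adult heart ranges overlapped. Between the genotypes the difference (KO minus WT) was -0.41 ± 0.10 (bead SE) in both TA and adult heart and -0.13 ± 0.08 in P14 heart.

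Esam encodes an immunoglobulin-family molecule of endothelial tight junctions and platelets. Its probe ILMN_2690839 had 10.82 in TA of KO mice and 10.92 in TA of WT mice, 11.38 in adult heart of KO mice and 11.81 in adult heart of WT mice, and 12.01 in P14 heart of KO mice and 11.96 in P14 heart of WT mice. The lowest heart value was that of the adult KO sample, and TA lay below it. KO minus WT came to -0.11 ± 0.05 (bead SE) in TA, -0.43 ± 0.05 in adult heart and 0.06 ± 0.04 in P14 heart.

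Of the receptor tyrosine kinases, Tek encodes TIE2, the receptor of the angiopoietins. Its probe ILMN_1220170 had 7.63 in TA of KO mice and 7.92 in TA of WT mice, 8.86 in adult heart of KO mice and 8.82 in adult heart of WT mice, and 9.08 in P14 heart of KO mice and 9.43 in P14 heart of WT mice. The 3 settings did not overlap, with TA lowest and P14 heart highest. For the genotypes, KO minus WT was -0.29 ± 0.09 (bead SE) in TA, 0.03 ± 0.09 in adult heart and -0.34 ± 0.09 in P14 heart.

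Tie1 encodes the related receptor TIE1, which pairs with TIE2. Its probe ILMN_2928560 had 6.74 in TA of KO mice and 6.93 in TA of WT mice, 7.39 in adult heart of KO mice and 7.57 in adult heart of WT mice, and 8.20 in P14 heart of KO mice and 7.83 in P14 heart of WT mice. The order of settings was that of Tek, but the P14 KO sample was above its WT sample. The KO minus WT difference was -0.19 ± 0.16 (bead SE) in TA, -0.18 ± 0.13 in adult heart and 0.38 ± 0.11 in P14 heart.

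Flt1 encodes VEGF receptor 1, which also exists as a soluble form that binds VEGF-A away from VEGF receptor 2. Its probe ILMN_1227926 had 10.49 in TA of KO mice and 10.65 in TA of WT mice, 11.07 in adult heart of KO mice and 11.25 in adult heart of WT mice, and 10.41 in P14 heart of KO mice and 10.64 in P14 heart of WT mice. Adult heart was highest, and TA and P14 heart overlapped, a pattern unlike that of the other kinases. Between the genotypes the difference (KO minus WT) was -0.16 ± 0.05 (bead SE) in TA, -0.19 ± 0.05 in adult heart and -0.23 ± 0.04 in P14 heart.

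Eng encodes endoglin, a co-receptor for BMP9 and TGF-beta on endothelial cells. Its probe ILMN_1229161 had 7.93 in TA of KO mice and 7.87 in TA of WT mice, 9.07 in adult heart of KO mice and 9.25 in adult heart of WT mice, and 9.56 in P14 heart of KO mice and 9.43 in P14 heart of WT mice. Both TA values lay more than 1 log2 unit below every heart value. KO minus WT came to 0.06 ± 0.14 (bead SE) in TA, -0.17 ± 0.07 in adult heart and 0.12 ± 0.08 in P14 heart.

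Emcn encodes endomucin, a mucin-like surface glycoprotein of capillary and venous endothelium. Its probe ILMN_1259365 had 9.19 in TA of KO mice and 9.44 in TA of WT mice, 10.40 in adult heart of KO mice and 10.60 in adult heart of WT mice, and 10.62 in P14 heart of KO mice and 10.45 in P14 heart of WT mice. The heart values of both ages overlapped, and TA was lower. For the genotypes, KO minus WT was -0.25 ± 0.05 (bead SE) in TA, -0.21 ± 0.05 in adult heart and 0.17 ± 0.05 in P14 heart.

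Vwf encodes von Willebrand factor, a clotting protein that endothelial cells and megakaryocytes store and release. Its probe ILMN_2519673 had 8.71 in TA of KO mice and 9.03 in TA of WT mice, 10.20 in adult heart of KO mice and 9.87 in adult heart of WT mice, and 9.74 in P14 heart of KO mice and 9.62 in P14 heart of WT mice. The adult KO heart was highest of the 6 samples and the KO TA lowest. The KO minus WT difference was -0.32 ± 0.08 (bead SE) in TA, 0.33 ± 0.08 in adult heart and 0.12 ± 0.06 in P14 heart.

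**Figure D1:**
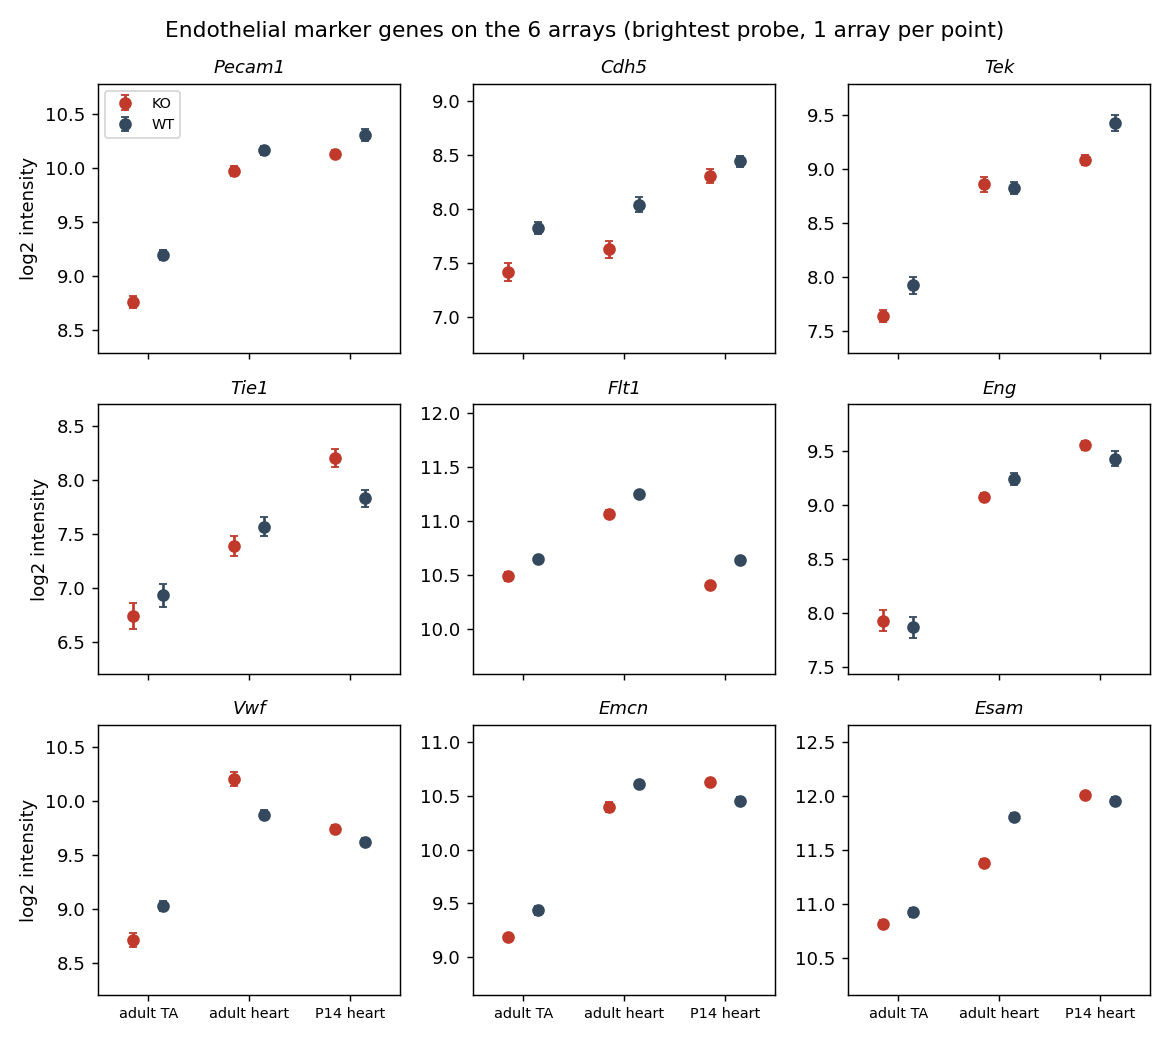
Log2 intensity (y axis) of the brightest probe of the 9 detected endothelial marker genes in each setting (x axis), with 1 point per array for KO (red) and WT (dark) and bars of 1 bead SE. TA lies below every heart sample for 7 of the 9 genes, the exceptions being Cdh5 and Flt1, as do 29.9% of all 18585 probes tested.

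Other probes of the same genes did not always follow the brightest one. The second Pecam1 probe, ILMN_3147074, was higher in the KO sample of adult heart by 0.52 ± 0.15 (bead SE), the second Flt1 probe, ILMN_2732721, by 0.57 ± 0.14 and the second Cdh5 probe, ILMN_2866951, by 0.27 ± 0.13, whereas the brightest probes of all 3 genes were lower there. In TA the third Pecam1 probe, ILMN_1226690, was lower in the KO sample by a difference of -0.47 ± 0.17, close to that of the brightest probe, and the second was at 0.03 ± 0.20. These probes are dimmer than the brightest of their gene and have wider bead errors, so the sign in adult heart is not settled for Pecam1, Cdh5 and Flt1.

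Counted over the 13 detected probes in TA, 3 were lower in the KO sample by a log2 difference of at least 0.32, against 12.1% of the 15790 probes detected there, and 0 were as much higher, against 11.7%. The 3 were the brightest and the third Pecam1 probe and the brightest Cdh5 probe. The median marker difference was -0.25, against -0.02 for all probes, and 10 of the 13 values were negative, against 54.2% of all. In adult heart 2 marker probes (Cdh5 and Esam) were lower in the KO sample by at least 0.32 and 3 (the second Pecam1 and Flt1 probes and Vwf) were as much higher, against 20.4% and 18.3% of 18276 probes. The median was -0.18 there, against -0.04 for all probes. In P14 heart 1 probe (Tek) was lower and 1 (Tie1) higher by this size, against 16.7% and 16.9% of 18642 probes, and the median was 0.06, against 0.00086 for all. With median centring that median was 0.21, against 0.0722 for all. The counts in both hearts are near the share of all probes that differ as much.

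**Figure D2:**
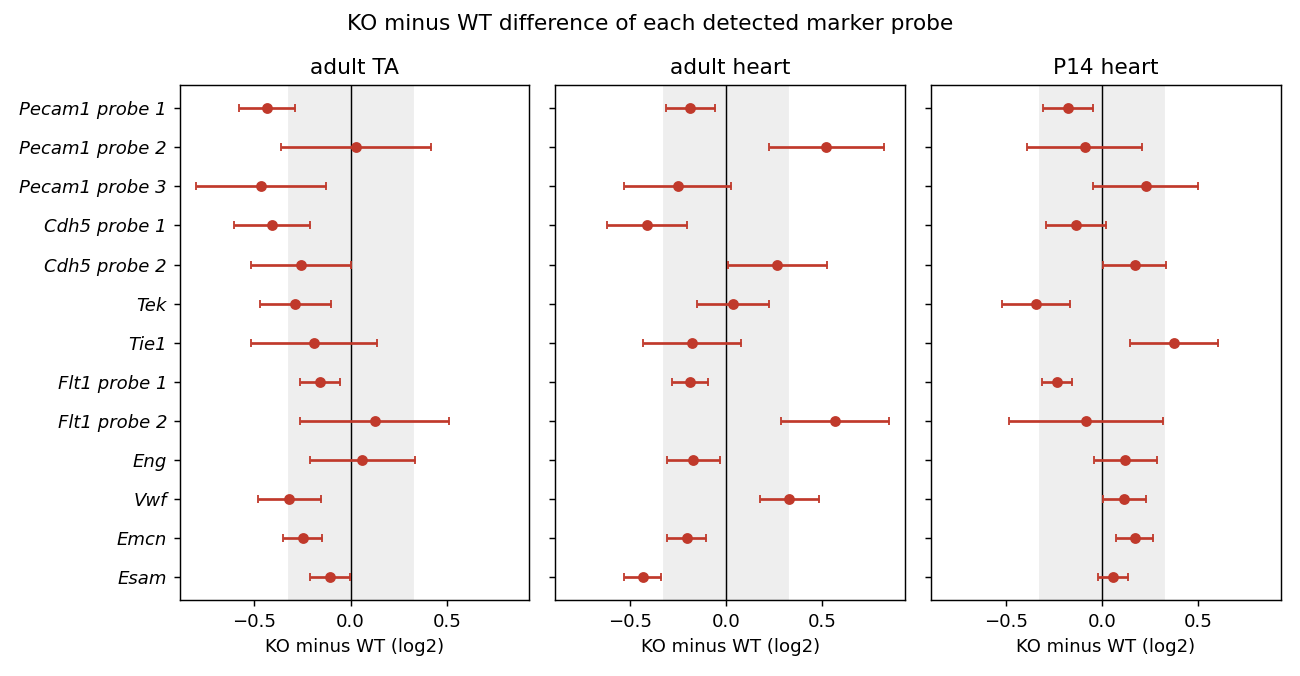
KO minus WT difference in log2 intensity (x axis) for each of the 13 detected marker probes (rows) in adult TA, adult heart and P14 heart, with bars of 2 bead SE. The grey band marks log2 differences under 0.32 in size, and 10 of the 13 values in TA are below 0, against 54.2% of all probes.

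Treating the 3 settings as repeats of the KO and WT contrast, limma (setting as a block, 2 residual degrees of freedom, Benjamini-Hochberg adjustment over 18585 probes) called 0 of the 13 marker probes at an adjusted p under 0.05, and 1 was under 0.05 unadjusted. Over all probes 12 were called, 0.0646%, and 9.76% were under 0.05 unadjusted, so 1 of 13 is near the background. The 1 probe was the brightest of Cdh5, with a difference of -0.32 (SE 0.14, 95% interval -0.63 to -0.01, limma adjusted p = 0.509), lower in 3 of 3 pairs. Pecam1 was at -0.27 (SE 0.12, interval -0.54 to 0.01, limma adjusted p = 0.515), also lower in 3 of 3 pairs, and Flt1 at -0.19 (SE 0.11, limma adjusted p = 0.570), lower in 3 of 3 pairs. The second probes of these genes had values above 0, at 0.15 for Pecam1 (limma adjusted p = 0.767), 0.0606 for Cdh5 (limma adjusted p = 0.909) and 0.20 for Flt1 (limma adjusted p = 0.709), and with the mean of detected probes per gene Flt1 was at 0.00551. For Eng the difference was 0.0047 with an interval of -0.28 to 0.29, and for Tie1 it was 0.0017 with an interval of -0.37 to 0.37. The median of the 13 probes was -0.10, against -0.02 for all probes tested, and 7 of 13 were negative, against 53.4% of all. Without the TA pair the marker median was -0.0176 (all probes -0.0122), without the adult heart pair -0.0421 (all probes -0.00983), without the P14 pair -0.17 (all probes -0.0272), and with median centring -0.0465 (all probes -0.0122).

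Whether the KO effect differed between TA and the hearts was tested as a contrast of 2 genotype terms with limma (1 residual degree of freedom). It was called for 0 of 13 marker probes, with 0 under 0.05 unadjusted, and for 0.231% of all probes. Vwf had the lowest adjusted p, with a KO effect lower in TA than in the hearts by a difference of -0.54 (SE 0.25, interval -1.10 to 0.02, limma adjusted p = 0.513).

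TA had lower levels of most endothelial markers than adult heart. Of the 9 detected genes 8 fell in TA, by between 0.59 and 1.26 on the log2 scale, and Cdh5 did not pass the test. The decrease was largest for endoglin, endomucin, von Willebrand factor, CD31 and TIE2, each with at least 1 log2 unit between the tissues. Since whole tissue was measured, fewer endothelial cells and less RNA per endothelial cell cannot be told apart, and the cause of the decrease was not tested.

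In the limma fit of setting and genotype over all 6 arrays, 9 of the 13 marker probes were called lower in TA than in adult heart and 0 higher, against 21.3% and 18.5% of all 18585 probes. The median of the 13 was -0.72, against -0.04 for all. Eng fell by 1.26 (SE 0.15, limma adjusted p = 0.000284), and the difference was -1.14 between the KO samples and -1.37 between the WT samples. Emcn fell by 1.19 (SE 0.16, limma adjusted p = 0.000449), with -1.21 between the KO samples and -1.17 between the WT samples. Vwf fell by 1.17 (SE 0.18, limma adjusted p = 0.00101), with unequal values of -1.49 between the KO samples and -0.85 between the WT samples.

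Pecam1 fell by 1.09 (SE 0.15, limma adjusted p = 0.000491), with -1.22 between the KO samples and -0.97 between the WT samples. Its second probe gave the same size, -1.09 (SE 0.21, limma adjusted p = 0.0032), and the third gave -0.49 (SE 0.23, limma adjusted p = 0.119). The kinase Tek fell by 1.06 (SE 0.16, limma adjusted p = 0.00102). Its partner Tie1 fell by 0.64 (SE 0.20, limma adjusted p = 0.031). These kinases thus moved in the same direction, with Esam, which fell by 0.72 (SE 0.16, limma adjusted p = 0.00694).

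Flt1 fell by 0.59 (SE 0.14, limma adjusted p = 0.00822), a decrease that averaging its 2 detected probes reduced to -0.42 (limma adjusted p = 0.0549). Its second probe was at -0.25 (SE 0.22, limma adjusted p = 0.401). Cdh5 was at -0.21 (SE 0.17, interval -0.59 to 0.17, limma adjusted p = 0.343) and its second probe at 0.22 (SE 0.19, interval -0.21 to 0.66, limma adjusted p = 0.381). Neither Cdh5 probe thus reached the decrease of at least 1 log2 unit seen for Eng, Emcn, Vwf, Pecam1 and Tek, and both intervals leave it out. Both TA samples lay below both adult heart samples for 10 of the 13 probes, against 37.7% of all probes tested, and below all 4 heart samples for 9, against 29.9%. Under median centring in place of quantile normalization the median of all probes shifted by -0.21, to -0.25, and that of the markers to -0.96, a distance of -0.72 from all probes, against -0.68 with quantile normalization.

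**Figure D3:**
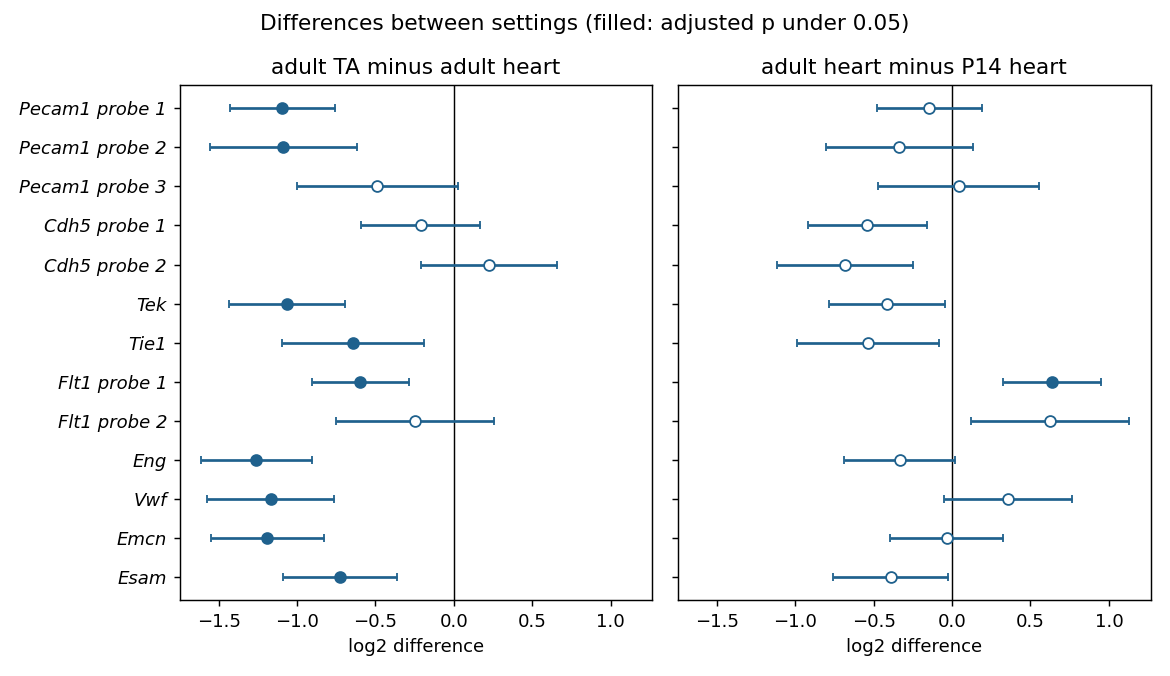
Differences in log2 intensity (x axis) of the 13 detected marker probes between adult TA and adult heart (left) and between adult heart and P14 heart (right), with 95% intervals from limma and filled points at an adjusted p under 0.05. On the left 9 probes are called lower and on the right only the brightest Flt1 probe is called, higher.

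Other endothelial genes were also called mostly lower in TA than in adult heart. Of the 13 tested receptors and co-receptors 6 fell and 0 rose (median -0.50), and Robo4, a guidance receptor of endothelium, fell by 0.95 (limma adjusted p = 0.00076). Of 11 junction genes 6 fell and 0 rose (median -0.65), among them F11r, which encodes the tight junction molecule JAM-A and fell by 0.97 (limma adjusted p = 0.00522), and Ctnnd1, which encodes p120 catenin and fell by 0.65 (limma adjusted p = 0.0354). Of 15 transcription factors 10 fell and 1 rose (median -0.77), and the SOXF factors Sox7 and Sox18 were at -0.92 and -0.85 (limma adjusted p = 0.00243 and 0.0125). Of 19 genes of endothelial function 12 fell and 0 rose (median -0.72), among them Cd93, a surface lectin-like receptor, at -0.92 (limma adjusted p = 0.0014). Of 9 ligands, which muscle fibres and stroma also make, 4 fell and 1 rose (median -0.26). The 1 was Vegfd, a growth factor of the VEGF family, at 1.21 (limma adjusted p = 0.00929), while Angpt1, the TIE2 ligand, was at 0.11 (limma adjusted p = 0.696). The apelin receptor gene Aplnr was at 0.13 (limma adjusted p = 0.641). With median centring Angpt1 and Aplnr turned to -0.22 and -0.20, and the counts of genes that fell were 8 receptors, 9 junction genes, 11 transcription factors, 14 function genes and 4 ligands. Under this scaling 30.8% of all probes were called lower and 13% higher, against 21.3% and 18.5% with quantile normalization.

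Markers of other cells moved between the tissues too, where 21.3% of all probes were called lower in TA and 18.5% higher. All 10 tested cardiomyocyte genes fell in TA (median -7.31), with Myl2 at -5.22 and Myl3 at -1.85, and all 12 fast fibre genes rose (median 8.52), with Ryr1 at 8.57 and Myh1 at 8.34. All 4 tested red blood cell genes fell (median -1.95), with Alas2 at -3.67 and Hba-a1 at -1.98, with sums of 5685 in TA of KO mice and 8628 in TA of WT mice, against 28849 in adult heart of KO mice and 28566 in adult heart of WT mice. All 6 macrophage genes fell (median -1.23), with a summed normalized intensity (linear scale) of 669 in TA of KO mice and 496 in TA of WT mice, against 1616 in adult heart of KO mice and 1885 in adult heart of WT mice. The pan-leukocyte gene Ptprc was detected on no array. Of 10 pericyte and smooth muscle genes 2 fell (median -0.31; 5 with median centring), of 9 fibroblast genes 6 fell and 2 rose, and of 4 platelet genes 1 fell, Pf4, at -1.12 (limma adjusted p = 0.0165), while the platelet genes Gp9, Gp6 and Gp1bb were detected on no array. All 4 airway and lung genes also fell, with sums of 205 in TA of KO mice and 43.6 in TA of WT mice, against 3562 in adult heart of KO mice and 8520 in adult heart of WT mice. Of the surfactant genes listed, Sftpa1 and Sftpc were detected on no array and Sftpb on 1. Sftpd was detected on 2, with 5.83 in adult heart of KO mice and 6.88 in adult heart of WT mice, against 4.39 to 4.76 elsewhere. The endothelial markers summed to 5246 in TA of KO mice and 6022 in TA of WT mice, against 9558 in adult heart of KO mice and 11038 in adult heart of WT mice. Such sums are weighted towards the brightest probes of a list, here that of Esam. The part of these other cells in the endothelial values was not tested.

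Between the ages of heart only 1 of the 13 marker probes was called. Flt1 was higher in adult than in P14 heart by 0.64 (SE 0.14, limma adjusted p = 0.0188), with 0.66 between the KO samples and 0.62 between the WT samples. Its second probe gave 0.62 (SE 0.22, limma adjusted p = 0.110). Of all probes, 6.44% were called higher and 5.59% lower in adult heart, and 0 marker probes were called lower. Most of the other markers had negative values that did not pass the adjusted threshold, and 7 of the 13 probes, Flt1 included, were under 0.05 unadjusted, against 26.5% of all probes. The median of the 13 was -0.33, against -0.02 for all probes.

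Cdh5 was at -0.54 (SE 0.17, limma adjusted p = 0.0723) and its second probe at -0.68 (SE 0.19, limma adjusted p = 0.0503). Both Cdh5 probes were called lower when the TA arrays were left out of the fit (limma adjusted p = 0.0489 and 0.0225). Tie1 was at -0.54 (limma adjusted p = 0.124), Tek at -0.42 (limma adjusted p = 0.144), Esam at -0.39 (limma adjusted p = 0.160) and Eng at -0.33 (limma adjusted p = 0.209). Pecam1 at -0.15 and Emcn at -0.04 were nearer to 0, and Vwf had a positive value of 0.36 (limma adjusted p = 0.247). Flt1 thus stood at the other side of 0 from its fellow kinases Tek and Tie1.

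These age values depended on how the arrays were scaled. With median centring the median of all probes shifted by -0.20, to -0.22, the Flt1 difference was 0.36 and lost its call (limma adjusted p = 0.142), and 6 marker probes were called lower, against 15.2% of all probes under this scaling. They were Cdh5 (-0.77, second probe -0.91), Tie1 (-0.78), Tek (-0.66), Esam (-0.60) and Eng (-0.58). Taken relative to the median of all probes, the marker median was -0.34 with median centring and -0.31 with quantile normalization.

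Some other endothelial genes differed more with age. Aplnr, a receptor of developing vessels, fell by 2.63 in adult heart (limma adjusted p = 0.000116), and of the 13 receptors it was the 1 call, against 8 with median centring. Of 11 junction genes 4 fell and 1 rose, of 15 transcription factors 6 fell and 0 rose, with Sox7 lower by a difference of -1.02 (limma adjusted p = 0.0052) and Sox18 by -0.81 (limma adjusted p = 0.0421), and of 19 function genes 3 fell, with Cd93 at -1.28 (limma adjusted p = 0.000987), and 3 rose. With median centring 6 junction genes, 7 transcription factors and 6 function genes fell, and 0, 0 and 2 rose. Under this scaling 15.2% of all probes were called lower and 4.75% higher, against 5.59% and 6.44% with quantile normalization. Airway and lung genes (4 of 4) and adipocyte genes (4 of 5) rose in adult heart, with medians of 4.24 and 4.33. Adipocyte genes summed to 5148 in adult heart of KO mice and 4611 in adult heart of WT mice, against 198 in P14 heart of KO mice and 213 in P14 heart of WT mice, and the adipocyte gene Retn was detected on no array. Fibroblast genes fell in 5 of 9 and rose in 1 (median -0.94; 7 fell with median centring), with sums of 14656 in adult heart of KO mice and 16317 in adult heart of WT mice, against 18563 in P14 heart of KO mice and 21862 in P14 heart of WT mice. Of 12 fast fibre genes 3 fell (median -1.17; 6 with median centring). The part of these cells in the age values was not tested.

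Beside the KO and WT values of each setting, other lists were read in the same way. In TA the median KO minus WT difference of the detected genes was negative in 7 of 8 further endothelial lists, at -0.17 for receptors (9 of 10 genes below 0), -0.15 for junction genes (8 of 10), -0.21 for transcription factors (11 of 13), -0.19 for function genes (14 of 18), -0.19 for ligands (4 of 7), -0.16 for activated and venous genes (4 of 6) and -0.23 for endocardial genes (4 of 4). For lymphatic genes it was positive, at 0.27 (1 of 3 below 0). Of all probes detected in this pair, 54.2% were below 0. Of the genes picked for their large difference in this pair, Aplnr was at -0.71, Sox7 at -0.66, Sox18 at -0.62, F11r at -0.58, Cd93 at -0.45, Angpt1 at -0.42, Ctnnd1 at -0.39 and Robo4 at -0.38. Others picked in the same way were above 0, with Vegfd at 0.51, Lyve1 at 0.48, and Pdpn and Vcam1 both at 0.27. Pericyte and smooth muscle genes had a median of -0.22 (8 of 10 below 0), with Myh11, smooth muscle myosin, at -0.30 and Rgs5, a pericyte gene, at -0.29. Macrophage genes were at 0.36, with 0 of 6 below 0, and Cd163 and Lyz2 at 0.44 and 0.43. Fibroblast genes were at 0.24, with 2 of 8 below 0, Mfap5 at 1.07 and Gsn at 0.83. The 2 detected red blood cell genes, Alas2 and Hba-a1, were at -0.69 and -0.60.

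The TA pair also differed in transcripts of other organs. Liver genes, among them Apoa2 (3.08) and Ttr (2.98), were higher in the KO sample by a median of 2.79, with 8 of 8 higher by at least 0.32 and sums of 9226 in TA of KO mice and 1160 in TA of WT mice, and adipocyte genes, among them Adipoq (2.57) and Scd1 (2.08), by 2.03, with 4 of 4 higher and sums of 2639 in TA of KO mice and 557 in TA of WT mice. Alb and Fgb, which define liver, and Retn were detected on no array. The endothelial markers, with 5246 in TA of KO mice and 6022 in TA of WT mice, differ in the other direction.

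In the adult hearts airway and lung genes were lower in the KO sample by a median difference of -1.43, in 4 of 4 genes (Cyp2f2 at -1.71). Of the 13 endothelial marker probes 8 were below 0 in this pair, against 55.0% of all probes. The receptor list had a median of -0.39 (9 of 13 below 0) and transcription factors -0.27 (10 of 15). Junction genes were at -0.18 (8 of 11), ligands at -0.15 (7 of 9) and function genes at -0.03 (11 of 19). Activated and venous, endocardial and lymphatic genes were above 0, at 0.13, 0.08 and 0.17. Of the receptors 7 were lower by at least 0.32 and 1 higher, against 20.4% and 18.3% of all probes. Of the transcription factors 7 were lower and 2 higher. Aplnr was at -0.85. Of 4 platelet genes 3 were lower in the KO heart by at least 0.32, and the list median was -0.84. These 3, Ppbp, Itga2b and Treml1, were detected on only 2 or 3 of the 6 arrays. Pf4, detected on all 6, was at -0.0028. The list summed to 138 in adult heart of KO mice and 234 in adult heart of WT mice. Red blood cell genes had a median of -0.79 with 2 of 4 below 0, and sums of 28849 in adult heart of KO mice and 28566 in adult heart of WT mice. Fast skeletal fibre genes were higher in the KO sample by at least 0.32 for 5 of 6 detected genes in adult heart (median 1.70) and for 10 of 12 in P14 heart (median 2.17), where they summed to 18148 in KO heart and 12582 in WT heart. In P14 heart the endothelial markers summed to 10802 in KO mice and 10824 in WT mice. List medians there were -0.13 for receptors, -0.17 for junction genes, -0.03 for transcription factors, 0.02 for function genes and -0.13 for ligands. They were -0.08 for activated and venous, 0.19 for endocardial and -0.11 for lymphatic genes. The part of these tissues in the KO and WT values of the endothelial markers was not tested.

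**Figure D4:**
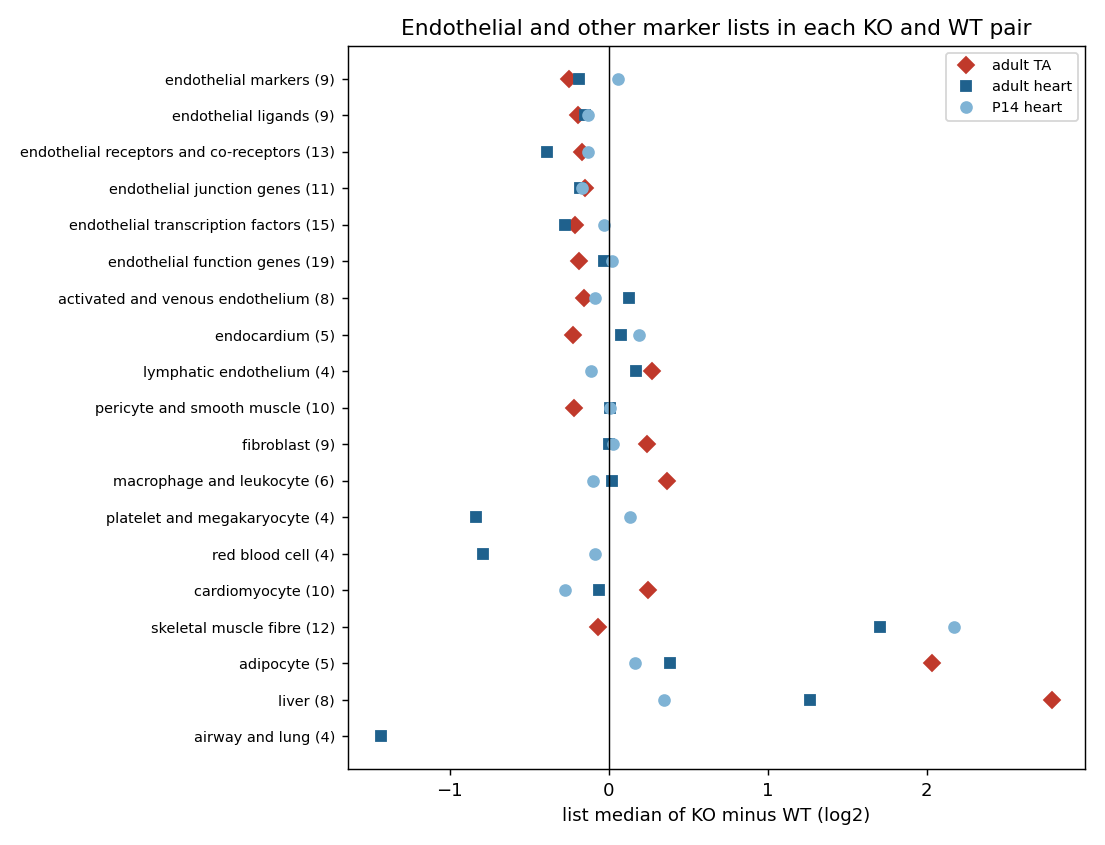
Median KO minus WT difference in log2 intensity (x axis) of each marker list (rows, with the number of genes tested in the fit in brackets) in adult TA, adult heart and P14 heart, over genes detected on at least 1 array of the pair and for lists with at least 3 such genes. The endothelial markers sit at -0.25, -0.19 and 0.06, while liver and adipocyte genes in TA are at 2.79 and 2.03.

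How the marker genes varied among themselves was read against their mean profile over the 9 detected genes, which was 8.63 in TA of KO mice and 8.86 in TA of WT mice, 9.55 in adult heart of KO mice and 9.71 in adult heart of WT mice, and 9.78 in P14 heart of KO mice and 9.79 in P14 heart of WT mice. The mean was lower in both TA samples than in any heart sample. Each gene's own average difference from that mean over the arrays was removed to see where it departed. Flt1 stood at 0.49 and 0.42 in TA of KO and WT mice, at 0.15 and 0.18 in adult heart, and at -0.74 and -0.51 in P14 heart. Cdh5 stood at 0.23 and 0.41 in TA of KO and WT mice, at -0.48 and -0.22 in adult heart, and at -0.03 and 0.10 in P14 heart. Both genes thus had higher relative values in TA than in adult heart in each genotype. So had Tie1, at 0.05 and 0.01 in TA of KO and WT mice, and at -0.22 and -0.20 in adult heart.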

How the data were processed

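Total RNA of 6 pooled samples was measured on 1-colour Illumina bead arrays. Per the file headers, the authors deposited for each probe and array the mean bead intensity, its standard error, how many beads were read (a count) and a detection p-value, without background subtraction or normalization between arrays. They also deposited processed intensity values, which by the numbers are quantile-normalized on the linear scale; which software made them is not stated in those headers. Array medians were 52.7 to 57.5 before normalization, and the median bead SE of detected probes was 4.02% to 4.29%. 0 columns of values were left unused.

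Background was corrected with normexp in limma 3.58.1 (R 4.3.3), with an offset of 16 and the negative controls' mean and SD estimated through the detection p-values, then quantiles were normalized and log2 taken. Probes detected at a p under 0.01 on at least 2 arrays entered the limma fits (lmFit, eBayes with trend, Benjamini-Hochberg), 18585 in all. The p-values rest on how differences vary between settings, not between animals, and on a variance prior that eBayes pools over all probes tested. Of 8.76 degrees of freedom behind each p-value and interval, 2 are residual ones of the probe itself. In the test of TA against the hearts 1 of 8.20 is. KO and WT pairs within a setting have no test. A 95% interval is that of limma. The platform annotation gives 1 symbol to 34885 probes, several to 18 and none to 10378. Of the list genes, 9 were not matched on the array. The scripts were checked on simulated data. Summed intensities are linear, with the offset removed, so the brightest probes of a list weigh most in its sum. The named genes are all marker genes, the 2 genes per list detected on both TA arrays with the largest KO and WT difference in TA, and Lyve1, Pf4 and Stab2. Of the genes this rule gives, 1 is not reported here. Other names, such as Myh6, and genes detected on no array were added after their values were seen. The marker genes and all lists were chosen with earlier results of these data known. Alternatives were another offset, no background correction, median centring, the authors' values, a stricter detection rule, no detection filter, a constant prior, 1 value per gene and leaving out a pair.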

Additional observations from a re-analysis of the deposited data

How the results depend on the processing

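The limits are these. Each group has 1 array of pooled cDNA, 5 marker genes have 1 probe on the array and Vwf has 1 detected probe, Kdr could not be measured, and other organs' transcripts and the sex-linked genes differ between samples. The labels give no replicate numbers, so setting is the only block in the fits.

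Between TA and adult heart 7 to 11 marker probes were called lower and 0 higher over 10 alternatives. The call of Flt1 was lost with the mean of detected probes per gene (-0.42), and the third Pecam1 probe (-0.81) and second Flt1 probe (-0.60) gained one with median centring. Under that scaling 30.8% of all probes were called lower, against 21.3% with quantile normalization. With the mean per gene Cdh5 was at 0.00573. With median centring its brightest probe was at -0.49 (limma adjusted p = 0.0607) and its second probe at -0.0678. Between the ages of heart the count of probes called higher was 0 with median centring, and the count called lower was 6 with median centring, 1 each without background correction, with the authors' values, with probes detected on all arrays compared and with the mean per gene, and 2 without the TA pair, against 0. The third Pecam1 probe was at -0.18 with median centring.

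The genotype difference and the test of TA against the hearts called 0 marker probes under every alternative run. Without the adult heart pair the genotype difference was -0.0421 for the second Cdh5 probe, -0.0299 for the second Pecam1 probe and -0.10 for Vwf. Without the P14 pair it was -0.19 for Tie1 and -0.0545 for Eng, and without the TA pair -0.0235 for Eng. With the mean per gene it was 0.00551 for Flt1. Leaving out each pair in turn gave ranges of -0.0421 to 0.22 for the second Cdh5 probe, -0.0299 to 0.28 for the second Pecam1 probe, -0.10 to 0.22 for Vwf, -0.19 to 0.0981 for Tie1 and -0.0545 to 0.0923 for Eng. For Flt1 the KO effect in TA minus that in the hearts was -0.00929 with median centring and -0.0347 with the mean per gene. In P14 heart the count of probes lower by at least 0.32 was 0 with median centring, against 1. In adult heart the count higher was 1 with the brightest probe per gene and 1 with the mean per gene, against 3, and the count lower was 1 with the mean per gene, against 2. In TA the count lower was 1 with the mean per gene, against 3. The cause was not tested, except that the settings per gene have fewer values (9 in place of 13).

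Over all probes or genes tested, calls for the genotype ranged from 3 to 58 (12 as reported, 58 without the P14 pair), for the test of TA against the hearts from 14 to 198 (43), for age from 1326 to 3713 (2235) and for TA against adult heart from 4307 to 8133 (7407). The counts past 0.32 in either direction ranged from 1734 to 6420 in TA (3749), from 3348 to 7983 in adult heart (7073) and from 2867 to 7104 in P14 heart (6251). These counts have unlike totals. The lowest for age, for TA against adult heart and for each pair count genes, from the mean per gene. Of 10281 genes, 41.89% were called for TA against adult heart and 12.9% for age, against 39.85% and 12.03% of 18585 probes. The counts of 198, 6420 and 7983 are of 45281 probes, without a detection filter. Median centring changed the split of higher and lower calls to 2409 and 5724 for TA against adult heart (3441 and 3966 as reported), to 882 and 2831 for age (1197 and 1038), to 14 and 15 for the genotype (2 and 10), to 1960 and 1544 for KO against WT in TA (1845 and 1904), to 2519 and 4965 in adult heart (3339 and 3734) and to 4387 and 2717 in P14 heart (3142 and 3109).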

Other observations

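Endothelium of other vessels was described by smaller lists. Of 4 tested lymphatic genes 3 fell in TA relative to adult heart (median -2.03), against 21.3% of all probes. The 3 were Prox1 (-3.51, detected on 4 of the 6 arrays), Lyve1 and Ccl21a (-1.70). Which cells these transcripts came from was not tested. Lyve1, a hyaluronan receptor of lymphatic vessels and some macrophages, fell by 2.35 (limma adjusted p = 5.45e-05), while Pdpn, podoplanin, was at -0.14 (limma adjusted p = 0.626). Lyve1 had a log2 intensity of 6.02 in TA of KO mice and 5.55 in TA of WT mice, 8.22 in adult heart of KO mice and 8.06 in adult heart of WT mice, and 7.14 in P14 heart of KO mice and 7.46 in P14 heart of WT mice. Stab2, a scavenger receptor of sinusoidal and lymphatic endothelium, was detected only in TA, at 7.11 in KO mice and 7.25 in WT mice, against 4.18 to 4.50 in the hearts. Its direction is opposite to that of Lyve1.

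Of 8 activated and venous endothelial genes 4 fell and 2 rose in TA relative to adult heart, against 21.3% and 18.5% of all probes. The counts of genes that rose, here and in the endocardial list, are near that share. Vcam1, an adhesion molecule for leukocytes, fell by 1.53 (limma adjusted p = 0.000213), and Selp, P-selectin, was higher by 0.79 (limma adjusted p = 0.0109), a call lost with median centring (0.46, limma adjusted p = 0.0803). Of 5 endocardial genes 3 fell and 1 rose, the 1 being the transcription factor Nfatc1 at 1.22 (limma adjusted p = 0.000624), and Plvap, which forms diaphragms of fenestrated and endocardial endothelium, was at 0.24 (limma adjusted p = 0.385).

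Among 3675 other genes detected on all 6 arrays with a range of at least 1 log2 unit, the profiles most like the mean of the endothelial markers were those of Gnptab (Pearson r = 0.999), Sh3kbp1 (0.998), Ssbp2 (0.998), Msn (0.998) and Slc35b3 (0.997). The 6 arrays fall into 3 settings, so these values describe likeness between settings, with no p. Msn, which encodes moesin, a membrane linker, had 6.17 in TA of KO mice and 6.42 in TA of WT mice, 7.66 in adult heart of KO mice and 7.88 in adult heart of WT mice, and 7.92 in P14 heart of KO mice and 7.98 in P14 heart of WT mice.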
